A study of Mus musculus with 8 samples.

Results

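The 9 genes Slc17a7, Slc17a6, Camk2a, Neurod6, Gfap, Aqp4, Mbp, Cx3cr1 and Cldn5 are standard markers of cortical cell types other than interneurons, and they were read in single cells that had been picked by hand as GABAergic interneurons. They were chosen by gene name, and all 9 were found among the 23335 gene names of the count table. The question asked of them was how pure the picked cells were: whether transcripts of pyramidal neurons, glia or blood vessels were counted in them, in how many cells, and whether this differed among the 8 library batches.

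The study profiled chandelier cells (ChC) and parvalbumin basket cells (Pv) from the frontal cortex of 4 wild-type female mice, picked by hand after slicing and mild dissociation. ChC carried the genotype Nkx2.1-CreER; Ai14, in which tamoxifen at embryonic day 17.5 lets Cre switch on a red fluorescent reporter in the late Nkx2.1 lineage, which enriches for ChC but does not contain ChC alone. Pv cells carried Pv-ires-Cre; Ai14, in which the parvalbumin gene drives Cre, so that any cell that has expressed parvalbumin is labeled. The ChC animals were killed at postnatal day 31 (animal 1, batches 1 and 2) and 32 (animal 2, batches 3 and 4), the Pv animals at postnatal day 29 (animal 3, batches 5 and 6) and 35 (animal 4, batches 7 and 8), and no experimental treatment was given beyond the induction. Cell type, mouse line and flow cell followed the same split of the samples and cannot be told apart.

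Transcripts were counted by unique molecular identifiers (UMI), random tags that let each captured molecule count once. Of 128 cells, 2 had no count, 1 in batch 4 and 1 in batch 6, which left 63 cells of each type. The batches held 448121, 556405, 2460679 and 1123083 UMI in ChC and 392580, 430860, 316540 and 797177 UMI in Pv. Cells ranged from 903 to 515374 UMI, with a median of 33244 in ChC and 23248 in Pv. Batch levels are given as counts per 1000000 UMI of the batch (CPM), and a gene at 0 in all cells is limited to 3 UMI of the total, or 0.46 CPM, and to a UMI in 3 of 126 cells, or 2.38%, which limits cells with a UMI and not cells that express the gene. These limits and all intervals cover counting error only, and the intervals of shares of cells treat the cells as independent and leave out differences between batches and animals.

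Cortical pyramidal neurons release glutamate and are the most numerous neurons around ChC and Pv cells, which synapse on their axon initial segments and cell bodies. Astrocytes, oligodendrocytes, microglia and capillary endothelium fill the space between neurons, and fragments of their processes or free RNA can accompany a neuron taken from dissociated tissue. Each of these classes expresses genes that GABAergic interneurons keep low or silent, while interneurons express the GABA-synthesizing enzymes Gad1 and Gad2 and the vesicular GABA transporter Slc32a1.

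Of a GABAergic reference list of 10 genes, Slc32a1 and Erbb4 had a UMI in 126 of 126 cells, Gad1 in 125, Gad2 in 117, and the transcription factor genes Sox6 in 115, Lhx6 in 102 and Dlx1 in 101. Dlx5 and Dlx6, of the same kind, were seen in 33 and 29 cells and were each at 0 in 4 batches. Of the marker genes, 4 of the 9 (Slc17a6, Neurod6, Gfap and Cldn5) had no UMI in any cell, and the other 5 (Slc17a7, Camk2a, Aqp4, Mbp and Cx3cr1) were detected, with 1908 UMI together, or 0.0292% of all UMI. The 10 GABAergic genes made up 0.968% of all UMI, and Erbb4, a receptor gene with a long span, gave 37.2% of these. In all 126 cells the summed UMI of the 9 markers stayed below that of the GABAergic list. Slc17a7, Aqp4, Mbp and Cx3cr1 each stayed below Slc32a1 in all 126 cells, and Camk2a reached or passed Slc32a1 in 2 cells, 1 ChC and 1 Pv. Against GABAergic genes with fewer UMI than Slc32a1 this did not always hold. Cell 42 of Pv, in batch 7, had 21 UMI of Slc17a7 beside 19 of Gad1 and 40 of Slc32a1. In batch 7 as a whole Slc17a7 (110 UMI) and Camk2a (222) passed Gad2 (17) and Dlx1 (42) but not Gad1 (259).

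**Figure D1:**
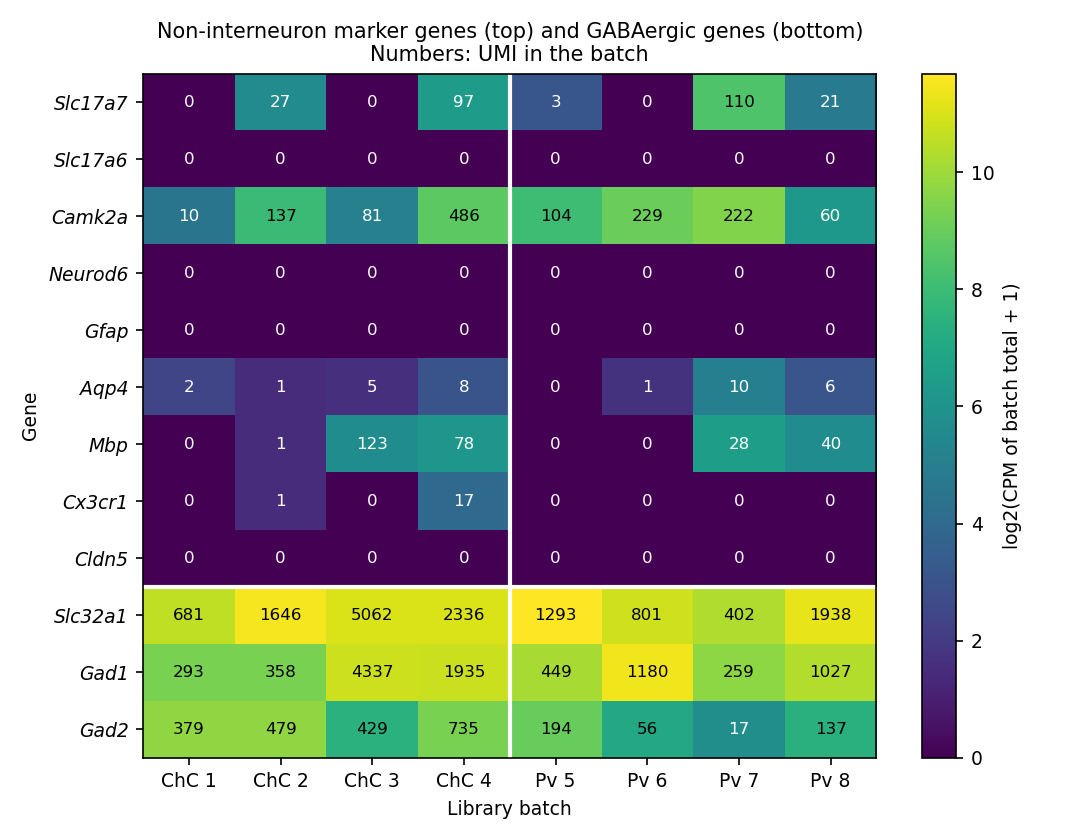
Level of the 9 marker genes and of 3 GABAergic genes (rows) in the 8 library batches (columns), colored by log2(CPM + 1) of the batch total and printed with the UMI of the batch. Slc17a6, Neurod6, Gfap and Cldn5 are at 0 in all 8 batches, Camk2a and the 3 GABAergic genes shown have UMI in all 8, and Slc17a7, Mbp and Cx3cr1 are present in some batches and at 0 in others.

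Slc17a7 encodes the vesicular transporter that loads glutamate into synaptic vesicles of cortical pyramidal neurons, and it lies on the plus strand of chromosome 7 (mm9, 52419291 to 52431509). In the ChC batches 1 to 4 it had 0, 27, 0 and 97 UMI, which is 0, 48.5, 0 and 86.4 CPM. In the Pv batches 5 to 8 it had 3, 0, 110 and 21 UMI, which is 7.64, 0, 348 and 26.3 CPM. The gene was thus high in Pv batch 7, intermediate in ChC batches 2 and 4 and Pv batch 8, and undetected in ChC batch 3, the deepest of all, where 0 UMI allows up to 1.22 CPM. The batches of both cell types overlapped, with a mean of 33.7 CPM ± 41.9 (SD, n = 4) in ChC and 95.4 CPM ± 168 (SD, n = 4) in Pv. Batch 7 alone gave 42.6% of the gene's UMI from 4.85% of all UMI in the table.

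At the level of cells, Slc17a7 had a UMI in 50 of 126 cells (39.7%, exact Clopper-Pearson 95% interval 31.1 to 48.8%), 22 ChC and 28 Pv, and in 0 to 93.8% of the cells of a batch. The share followed depth as well as level. With each of the 103 cells of at least 10000 UMI thinned to 10000, the gene was seen in 10 of 48 ChC (20.8%) and 17 of 55 Pv (30.9%), and the 15 ChC and 8 Pv below that depth were left out. Unthinned, the same cells gave 43.8% and 47.3%. In the thinned cells of batch 7 Slc17a7 was seen in 13 of 13 cells, beside 8 of 14 in batch 4 and 0 of 14 in batch 3.

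Slc17a6, the vesicular glutamate transporter used mainly by thalamic and other subcortical neurons, had no UMI over a transcribed span of 49.3 kb on chromosome 7 (58877200 to 58926496). Neurod6, a transcription factor of pyramidal neurons (chromosome 6, 55627813 to 55631257), also had none. Counts of 0 were more common among short genes in this table. Among gene names with a span under 15 kb, 51.1% had no UMI in any cell, and among longer ones 6.43%. Slc17a6 belonged to the second group, and Neurod6, Gfap and Cldn5 to the first. Whether the short genes were silent or gave fewer tags was not tested.

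Camk2a encodes the alpha subunit of calcium/calmodulin-dependent kinase II, a protein concentrated at excitatory synapses and long used as a marker of forebrain pyramidal neurons. It was the most widespread of the 9 genes. The ChC batches had 10, 137, 81 and 486 UMI, which is 22.3, 246, 32.9 and 433 CPM. The Pv batches had 104, 229, 222 and 60 UMI, which is 265, 531, 701 and 75.3 CPM. Batches of ChC were both the lowest and among the high ones, and the ranges overlapped, with 184 CPM ± 196 (SD, n = 4) in ChC and 393 CPM ± 278 (SD, n = 4) in Pv. It was seen in 110 of 126 cells (87.3%, interval 80.2 to 92.6%), 49 ChC and 61 Pv, and after thinning to 10000 UMI in 31 of 48 ChC (64.6%) and 46 of 55 Pv (83.6%). The thinned share lay in the order of the CPM.

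Camk2a and Slc17a7 did not keep a constant ratio among batches. ChC batch 3 and Pv batch 6 had 81 and 229 UMI of Camk2a with none of Slc17a7, whereas Pv batch 7 had 222 and 110. Per kb of genomic span, over all cells, Slc17a7 had 21.1 UMI per kb. Camk2a had 21.3 over its longer transcript (62.5 kb) and 53.2 over the shorter (24.6 kb), which held 1309 of the 1329 UMI. On the same scale GABAergic genes had 3.24 UMI per kb for Sox6, 21.99 for Erbb4, 24.2 for Dlx5, 33.9 for Gad2, 63.01 for Lhx6, 80.9 for Dlx6, 195 for Dlx1, 247 for Gad1 and 2837 for Slc32a1. Per kb and pooled over all cells, Slc17a7 thus stood at 0.744% of Slc32a1 and 8.55% of Gad1. On that scale it was near Erbb4 and Dlx5, and above Sox6. A UMI counts a molecule once whatever the span, so these are not ranks of molecule numbers. In UMI, Slc17a7 (258) lay far below Erbb4 (23488) and Sox6 (1837), with spans of 1068 and 567 kb, and above Dlx5 (103). The ranks per kb did not hold in each batch. Batch 7 held 110 of the 258 UMI of Slc17a7, and batch 8 held 63 of the 103 of Dlx5. In batch 7 Slc17a7 had 9.002 UMI per kb, above Gad1 (6.5), Erbb4 (0.642) and Dlx5 (0) but below Slc32a1 (80.6). In UMI, Gad1 (259) and Erbb4 (686) lay above Slc17a7 (110) in that batch. In batch 3 Slc17a7 had 0, beside 9.615 UMI per kb for Erbb4 and 1.988 for Sox6. No test was made between genes.

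In the comparison of ChC with Pv, UMI were summed over the cells of each animal, and 9681 gene names passed the filter on low counts. Of the 9 markers 3 passed it (Slc17a7, Camk2a and Mbp), and 0 of these 3 were called at an adjusted p under 0.05, where the share of all genes called was 0%. With edgeR's quasi-likelihood test and 2 animals against 2 no gene in the table was called; 618 had an unadjusted p under 0.05, and DESeq2 on the same sums called 158, with Slc17a7, Camk2a and Mbp not among them. Slc17a7 had 26.9 and 27.1 CPM in the ChC animals 1 and 2 and 3.64 and 118 CPM in the Pv animals 3 and 4. Its log2 fold change of ChC over Pv was -1.02 (SE 1.56, edgeR adjusted p = 0.989). Both ChC animals lay between the Pv animals. Camk2a had 146 and 158 CPM in the ChC animals and 404 and 253 CPM in the Pv animals, a log2 fold change of -1.10 (SE 0.70, edgeR adjusted p = 0.901). Both Pv animals lay above both ChC animals for Camk2a, but the batches overlapped: ChC batch 4 passed Pv batches 5 and 8, and ChC batch 2 passed Pv batch 8. The direction for Slc17a7 rested on batches 3 and 7: without Pv batch 7 the log2 fold change was 0.90, and without ChC batch 3 it was 0.09. That for Camk2a was -0.13 without ChC batch 3.

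Gfap, the intermediate filament of astrocytes that is strong in white matter and in reactive tissue and weak in resting cortical gray matter, had no UMI in any batch (chromosome 11, 102748650 to 102758514, minus strand, within the span of the noncoding RNA Gm17536 of the opposite strand). Aqp4, the water channel of the astrocyte endfeet on blood vessels (chromosome 18, 15547903 to 15562193, minus strand), was detected at a trace. It had 2, 1, 5 and 8 UMI in the ChC batches and 0, 1, 10 and 6 in the Pv batches. In CPM these were 4.46, 1.80, 2.03 and 7.12 in ChC and 0, 2.32, 31.6 and 7.53 in Pv, so that batch 7 was again the highest and 4 batches stayed at 3 UMI or fewer. The mean was 3.85 CPM ± 2.49 (SD, n = 4) in ChC and 10.4 CPM ± 14.5 (SD, n = 4) in Pv. Aqp4 had a UMI in 26 of 126 cells (20.6%, interval 13.9 to 28.8%), at 2 or more UMI in 4 cells, and in 4 of 103 cells after thinning (3.88%).

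Mbp encodes myelin basic protein, a main component of the myelin sheath made by oligodendrocytes. Its ChC batches had 0, 1, 123 and 78 UMI, which is 0, 1.80, 49.99 and 69.5 CPM, and its Pv batches 0, 0, 28 and 40 UMI, which is 0, 0, 88.5 and 50.2 CPM. The gene therefore split the batches by animal: animals 2 and 4 had 201 and 68 UMI, and animals 1 and 3 had 1 and 0. In CPM these animals stood at 56.1 and 61.1 against 0.995 and 0, with up to 3.64 CPM allowed by the 0 of animal 3. Since each cell type had 1 animal of either kind, the contrast of ChC with Pv was near 0, at a log2 fold change of 0.02 (SE 2.10, edgeR adjusted p = 0.999). Animals 2 and 4 were sequenced on the second lane of their flow cells and animals 1 and 3 on the first. Animals 2 and 4 were also older, at postnatal day 32 and 35 against 31 and 29 for animals 1 and 3. Animal, lane and age therefore cannot be told apart. Mbp was seen in 53 of 126 cells (42.1%, interval 33.3 to 51.2%), 28 ChC and 25 Pv, and after thinning in 14 of 48 ChC (29.2%) and 15 of 55 Pv (27.3%).

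The Mbp locus produces the short transcripts that encode the myelin proteins and, from a start far upstream, the longer Golli transcripts, which are also made outside oligodendrocytes, among others in neurons and immune cells. The count table held 4 transcripts of the gene on the plus strand of chromosome 18. The longest ran from 82644515 to 82755029 and had 270 UMI over all cells, and the shortest ran from 82723900 to the same end and had 210. The remaining 60 UMI (22.2%) lay upstream of the short transcripts, in sequence that only the Golli transcripts cover. In ChC batches 3 and 4 this upstream part held 5 of 123 and 19 of 78 UMI, and in Pv batches 7 and 8 it held 3 of 28 and 33 of 40. Batch 8 thus had 82.5% of its Mbp UMI outside the short transcripts, against 4.07% in batch 3. The pseudogene Rpl21-ps8 lies within the upstream part on the opposite strand (82692899 to 82693439 in GENCODE), and since tags of both strands appeared to be counted, its tags and those of Golli transcripts cannot be told apart.

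**Figure D2:**
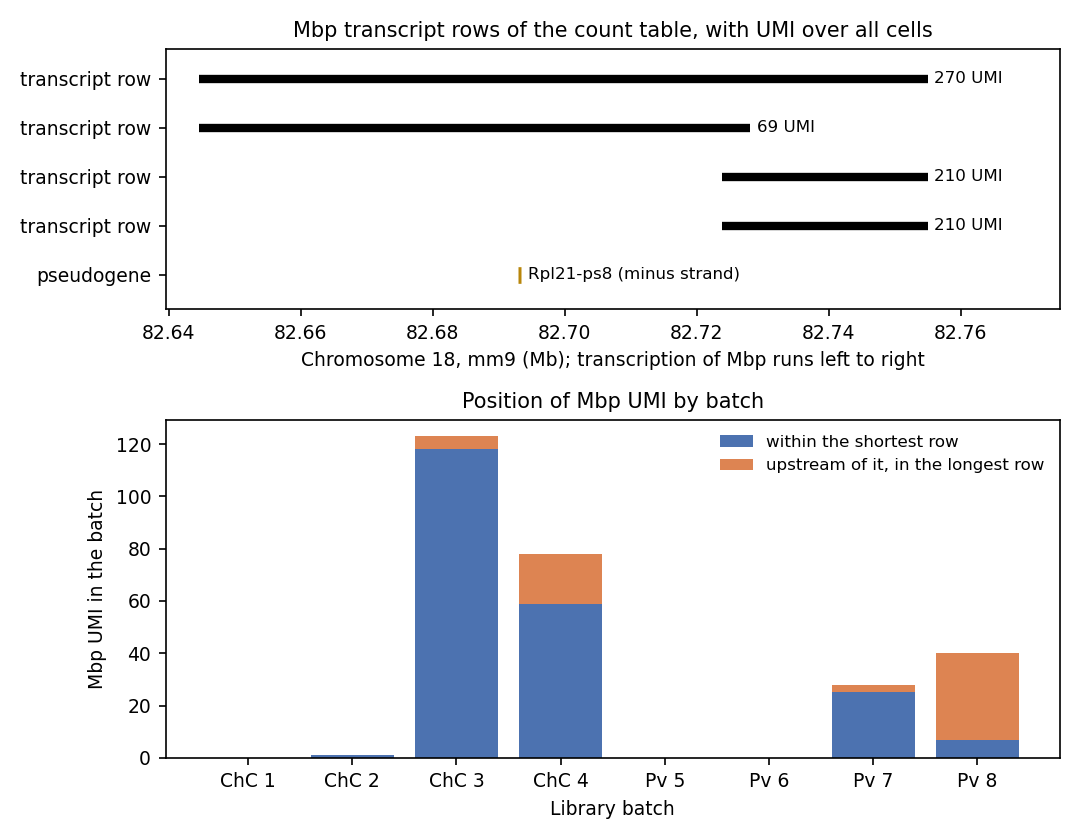
Upper panel, the 4 Mbp transcripts of the count table drawn to scale on chromosome 18 (mm9, Mb) with the UMI counted in each over all cells, and the pseudogene Rpl21-ps8. Lower panel, Mbp UMI of each library batch, split into those within the shortest transcript and those upstream of it; the upstream part holds 33 of 40 UMI in batch 8 and 5 of 123 in batch 3.

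Cx3cr1, the fractalkine receptor that microglia carry in the brain (chromosome 9, 119957811 to 119977400, minus strand), was found almost wholly in 1 batch. It had 0, 1, 0 and 17 UMI in the ChC batches, which is 0, 1.80, 0 and 15.1 CPM, and 0 in each Pv batch. Over both groups this was 18 UMI or 3.92 CPM in ChC, at least 2.53-fold higher than the 1.55 CPM that 3 UMI over all Pv cells would give. Batch 4 held 17 of the 18 UMI, and without it ChC had 1. The gene did not pass the filter for the test. It had a UMI in 9 of 126 cells (7.14%, interval 3.32 to 13.1%), 8 of them in batch 4, and after thinning in 2 of 48 ChC (4.17%) and 0 of 55 Pv.

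Cldn5 encodes claudin 5, the tight junction protein of the brain's capillary endothelium, and had no UMI in any batch over its span of 1.42 kb (chromosome 16, 18776940 to 18778355). Its limit per batch ran from 1.22 CPM in batch 3 to 9.48 CPM in batch 7.

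The spread of each detected gene over the cells of a batch was set against an even spread, in which every cell holds the gene in proportion to its total UMI. Chi-square per degree of freedom, which is near 1 for an even spread with counting error, was computed for the 15 pairs of a marker gene and a batch with at least 20 UMI, and it ran from 0.656 to 2.15 with a median of 0.877. Slc17a7 in batch 7 had 0.866, with UMI in 15 of 16 cells where an even spread gives 15.6. Cx3cr1 in batch 4, with too few UMI for that ratio, was seen in 8 of 15 cells where an even spread gives 8.22. Camk2a in batch 7 had the 2.15, above 1.67, the 95% point of the chi-square distribution for a batch of 16 cells. The other 14 pairs lay below the 95% point of their batch. Shallow cells have small expected counts, where this distribution is an approximation, so an even spread need not pass the point in 5% of cases. In these 15 pairs the marker had UMI in 10 to 16 cells, and no cell held more than 27.01% of a pair's UMI. The 4 pairs of a single UMI do not bear on the spread.

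This was no property of the marker genes alone. For all genes with at least 20 UMI in a batch (3592 to 8733 genes), the median of the same ratio lay between 0.954 and 1.06 in the 8 batches. Of these genes 7.63 to 13.05% lay above the 95% point, which is approximate here too. Among the 641 pairs of a gene and a batch with at least 1000 UMI, the median was 1.37 and 34.01% lay above that point. For the GABAergic list the ratio ran from 0.399 to 4.92 with a median of 1.25, and Slc32a1 lay above the point in 5 of 8 batches (up to 2.90) and Erbb4 in 4 (up to 4.92). Cells of a batch thus differed in some abundant genes. At the lower counts of the markers most genes showed little variation beyond counting error. Counting error is large at such counts and can hide differences between cells, so the ratio cannot show that the cells were alike. The number of cells with a marker UMI lay near that of an even spread, and thus says little beyond the level of the batch and the depth of its cells. For most genes at such counts the values do not tell the cells of a batch apart from repeated draws out of 1 pool of transcripts, and the shares of cells with a marker UMI and their intervals are to be read with that limit. Why the counts were spread so evenly was not tested.

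**Figure D3:**
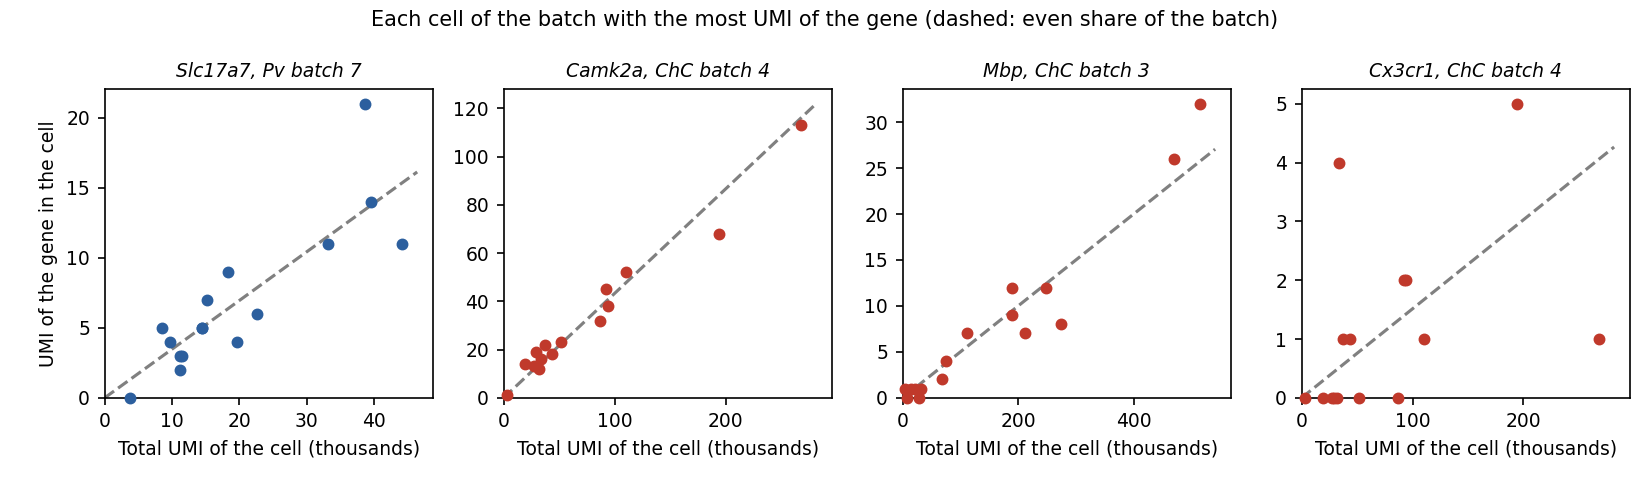
UMI of Slc17a7, Camk2a, Mbp and Cx3cr1 in each cell (points; red ChC, blue Pv) against the total UMI of the cell, in the batch with the most UMI of that gene. The dashed line is an even share of the gene by cell total; Slc17a7 has a UMI in 15 of 16 cells of batch 7, scattered around the line, and Cx3cr1 has a UMI in 8 of 15 cells of batch 4.

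Cells with more of the marker genes were mostly deeper cells. Of the 126 cells, 11 had none of the 9 genes (all ChC, median 6024 UMI), 47 had 1, 24 had 2, 24 had 3, 19 had 4 and 1 had 5. The median depth was 19344 UMI in cells with 1 marker gene, 31314 with 2, 50103 with 3 and 39517 with 4. Cell 51 of ChC, in batch 4, had all 5 detected genes and a total of 268288 UMI, with 26 UMI of Slc17a7, 113 of Camk2a and 20 of Mbp beside 473 of Slc32a1. Leaving Camk2a aside, 53 cells (42.1%) had no UMI of the other 8 genes.

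Further genes of the same cell classes were read from fixed marker lists, as the summed UMI of a list in percent of the summed UMI of the 10 GABAergic genes in the same batch. This ratio serves to compare batches, not genes, since the lists differ in gene length. Its divisor was also lower in Pv, with 8788 to 11395 CPM of the GABAergic list in ChC batches and 5484 to 8030 CPM in Pv batches (Erbb4 4477 CPM ± 790 in ChC and 1825 CPM ± 414 in Pv, SD, n = 4 each), which raises each Pv ratio relative to ChC. In the list of excitatory neurons 8 of 14 genes had UMI, led by Camk2a (1329 UMI), Nrgn (1282), which encodes a calmodulin-binding protein of dendrites, and Slc17a7 (258). The transcription factors Neurod1, Tbr1, Emx1 and Fezf2, which define pyramidal neurons and their layers, were at 0 together with Slc17a6 and Neurod6. The list stood at 0.660, 5.13, 0.678 and 8.27% of the GABAergic list in ChC batches and at 7.06, 7.75, 48.96 and 6.44% in Pv batches. Batch 7 stood apart, with Nrgn as its most abundant gene (414 UMI); the mean over 8 batches was 10.6% ± 15.8 (SD, n = 8) and 5.14% without batch 7. In the edgeR fit 5 of the 14 genes passed the filter, none was called and all 5 had negative log2 fold changes, with a median of -1.10 against 0.05 for all genes tested. Without Pv batch 7 the median was -0.50, with 3 of 4 tested genes negative, and without ChC batch 3 it was -0.27, with 4 of 5 negative.

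For astrocytes 12 of 13 listed genes had UMI, Gfap alone being at 0, and the most abundant were the glutamate transporter genes Slc1a2 (1117 UMI) and Slc1a3 (620) and the glycolytic enzyme gene Aldoc (418). The list stood at 1.14, 2.87, 2.67 and 9.58% in ChC and at 1.34, 1.56, 24.1 and 10.1% in Pv batches. Batches 4, 7 and 8 were high, and the mean of 6.67% ± 7.93 (SD, n = 8) was 4.17% without batch 7. These batches were not high through the same genes. Slc1a2 led the list in batches 4 (445 UMI) and 7 (191) but had 52 UMI in batch 8. There a single gene outside the 3 named held 216 of the 608 UMI. Aqp4 was highest in CPM in the same 3 batches.

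For oligodendrocytes 8 of 11 genes had UMI, led by Mbp (270), Cnp (77), a myelin enzyme gene, and Cldn11 (66), a tight junction gene of myelin, whereas the myelin genes Mag, Mobp and Opalin were at 0. The list stood between 0.237% in batch 2 and 2.42% in batch 7, with a mean of 1.00% ± 0.80 (SD, n = 8). Its genes did not share 1 pattern: Cnp had 60 of its 77 UMI in batch 6, where Mbp had none, and Cldn11 had 63 of 66 in batch 3. Of 4 precursor genes, Olig1 (23 UMI) and Pdgfra (19) were detected, mostly in batch 8 (21 and 14 UMI), and Cspg4 and Olig2 were at 0.

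For microglia 9 of 12 genes had UMI, led by the purinergic receptor gene P2ry12 (69), the protease gene Ctss (51) and Aif1 (22), a calcium-binding protein gene, and C1qa, Tmem119 and Trem2 were at 0. In batch 4, which held 17 of 18 Cx3cr1 UMI, 9 of the 12 genes were detected, against 0 to 4 in each of the other 7 batches. P2ry12 had 53 of its 69 UMI there and Aif1 22 of 22. The list stood at 1.41% of the GABAergic list in batch 4, 1.21% in batch 7, where Ctss had 15 of the 21 UMI, and 0.104% or less in the other 6 batches, with a mean of 0.366% ± 0.587 (SD, n = 8) and 0.216% without batch 4.

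For endothelium 6 of 11 genes had UMI, led by the receptor genes Tek (109) and Flt1 (43) and by Pecam1 (35), and Cldn5, Ly6c1, Itm2a, Tie1 and Esam were at 0. The list stood between 0.153% in batch 3 and 1.84% in batch 7, with a mean of 0.585% ± 0.534 (SD, n = 8). The 3 leading genes have spans of 61.1 to 164 kb, and the 5 genes at 0 have spans of 1.42 to 18.7 kb. Of the genes of vessel wall cells, Rgs5 had 96 of 102 UMI in batch 8, Pdgfrb 26 of 26 in batch 7 and Tagln 12 of 16 in batch 7, while Acta2, Kcnj8 and Vtn were at 0. Of the red blood cell genes, Hba-a1 had 91 of 91 and Hbb-b1 3 of 3 UMI in batch 7, and Alas2 had 20 and 28 UMI in batches 1 and 2 and none elsewhere.

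**Figure D4:**
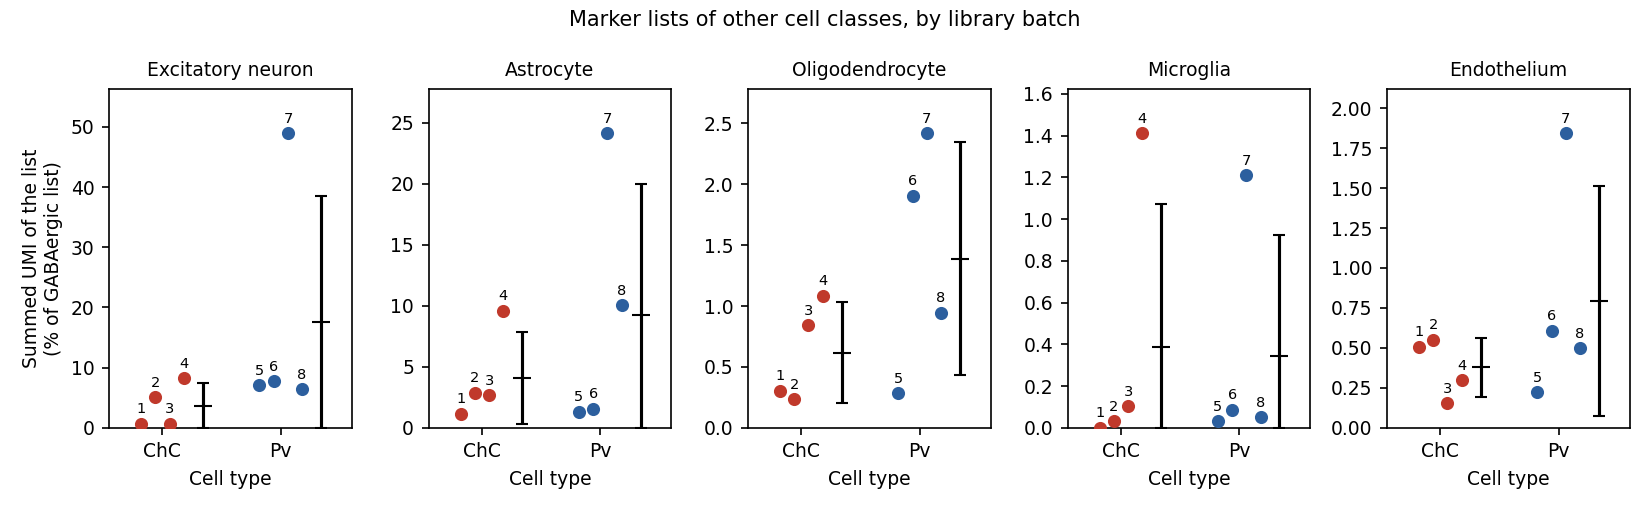
Summed UMI of the marker list of 5 cell classes in percent of the summed UMI of the GABAergic list (vertical axes, a scale of its own in each panel) for the library batches of ChC (red) and Pv (blue), numbered 1 to 8; bars show the mean and SD of 4 batches, cut at 0 where the SD passes it. The divisor is lower in all Pv than in all ChC batches. Batch 7 is the highest in 4 panels and batch 4 in that of microglia, with batch 7 at 48.96% for excitatory neurons and 1.84% for endothelium.

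Batch 7, the highest in 4 of these 5 ratios, was also the batch with the fewest UMI (316540) and with the lowest level of the GABAergic list (5484 CPM, against 7577 to 11395 CPM in the other 7 batches). As a share of the batch total the excitatory list in batch 7 reached 2685 CPM, against 58.02 to 861 CPM elsewhere, so the difference was also present without the GABAergic list as the divisor. For oligodendrocytes batch 7 was not the highest in CPM, with 133 CPM beside 153 CPM in batch 6, and for microglia it had 66.3 CPM beside 147 CPM in batch 4. In the contrast of ChC with Pv, leaving out batch 7 turned the log2 fold change of Slc17a7 from -1.02 to 0.90 and took that of Camk2a from -1.10 to -0.68.

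The genes most like a marker over cells were looked for among 6986 genes in the 103 cells thinned to 10000 UMI, by Pearson correlation of log2(UMI + 1). For Slc17a7 they were Prdm4 (r = 0.78), Palm2 (r = 0.76) and Ell3 (r = 0.76), for Camk2a Wdfy3 (r = 0.66), Nsun5 (r = 0.57) and Mgat4c (r = 0.57), and for Mbp Rpl34 (r = 0.50), a ribosomal protein gene whose tags cannot be told apart from those of its processed copies, Ralgapb (r = 0.49) and Glul (r = 0.49). These cells share 8 batches, and once the batch mean was subtracted the same pairs had r of 0.03, 0.01 and 0.07 for Slc17a7, 0.24, 0.16 and 0.03 for Camk2a, and 0.13, 0.15 and 0.01 for Mbp. The likeness was thus mostly one of batch levels: Prdm4 and Ell3, for example, had 118 of 124 and 141 of 152 UMI in batches 4 and 7, where Slc17a7 was also highest. Aqp4 and Cx3cr1 were seen in too few thinned cells for this comparison.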

How the data were processed

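RNA of single cells was amplified by in vitro transcription from polyA primers; per the submitters' processing notes, reads were aligned with Bowtie 0.12.7 to mm9, and the authors deposited raw UMI counts for 27207 transcripts in 128 cells. In the deposited counts, transcripts nested in introns or on the opposite strand of another gene were contained in that gene's count in 329 of 331 intronic pairs, so tags over the whole span and of both strands appear to be counted. Transcripts of a gene share tags; the transcript with the most UMI was therefore used per gene name in place of the planned sum, a choice made after seeing the data. UMI were summed per animal and tested with edgeR 4.0.16 (glmQLFit, glmQLFTest, TMM, filterByExpr, Benjamini-Hochberg, threshold 0.05), after a check on simulated data; DESeq2 1.42.0 was an alternative. Python 3.11.15, numpy 2.4.6 and scipy 1.17.1 gave the rest; thinning was without replacement. Map2 was matched by an older symbol. The 9 genes and all marker lists were chosen with earlier results of these data known. Of the planned lists 2 genes are not reported here; 1 of them was left out of the sums and 1 remains in them. From each list of another cell class the 3 genes with the most UMI, those at 0 and GABAergic genes are named.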

Additional observations from a re-analysis of the deposited data

Results flagged for a closer look

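In 27 sets of 4 batches with any variation (a marker gene's CPM, or a marker list in percent of the GABAergic list, within ChC or Pv), 6 had a batch far from the other 3 by Dixon's criterion at the 95% level; chance alone gives about 1 in 20 for independent, normally distributed values. That rate is no yardstick here, since Slc17a7 and Cx3cr1 are also part of their lists and some sets are mostly 0. Slc17a7 in Pv had 348 CPM in batch 7, where the next batch had 26.3 CPM. Cx3cr1 in ChC had 15.1 CPM in batch 4, where the next batch had 1.80 CPM. The excitatory neuron list in Pv stood at 48.96% of the GABAergic list in batch 7, where the next batch stood at 7.75%. The microglia list stood at 1.41% in batch 4 in ChC, where the next batch stood at 0.104%, and at 1.21% in batch 7 in Pv, where the next batch stood at 0.0867%. The red blood cell list in Pv stood at 5.41% in batch 7 and at 0 in the other 3 batches. Of these 6 values 4 come from batch 7.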

How the results depend on the processing

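The count of genes called between ChC and Pv (0) was 6 with the 8 batches as samples, 158 with DESeq2 and 84 without the filter, which tests more genes; without TMM, with cells of at least 10000 UMI and with summed transcripts it was 0. With 1 animal left out, the lone animal being assumed to vary like the other group, it ran from 14 to 96, and with 1 batch left out from 0 to 2 (2 without batch 4 or 5, 1 without batch 7). Slc17a7, Camk2a and Mbp were called in none of 18 alternatives, with a lowest adjusted p of 0.402 (Mbp, edgeR without Pv animal 4); of the other 6 marker genes, Aqp4 could be tested in 4 alternatives and Cx3cr1 in 1, without a call. Leaving out an animal or batch, the log2 fold change ran from -2.40 to 2.77 for Slc17a7, from -1.83 to -0.13 for Camk2a and from -4.56 to 8.68 for Mbp; the highest value for Mbp was fitted against an animal at 0 and is no bound. For Mbp it was -0.00071 with DESeq2 and -0.089 without TMM. With transcripts summed, which counts shared tags repeatedly, the oligodendrocyte list stood at 1.90% in place of 1.00%; the excitatory, astrocyte, microglia and endothelium lists moved by less than the SD between batches in every alternative, but that SD is close to or above their means. With UMI per kb the red blood cell list stood at 13.4% in place of 0.796%. On that scale the endothelium list stood at 0.103% in place of 0.585% and the astrocyte list at 10.8% in place of 6.67%. The alternatives of UMI per kb and of batches left out of the test were added after seeing the data. The sum, planned as the main setting, became an alternative when the transcript with the most UMI took its place. Without their most abundant gene the endothelium, oligodendrocyte, excitatory and astrocyte lists stood at 0.268, 0.576, 6.80 and 4.31%. Without 1 batch the lists ranged from 5.14 to 12.0% (excitatory), 4.17 to 7.46% (astrocyte), 0.801 to 1.11% (oligodendrocyte), 0.216 to 0.418% (microglia) and 0.405 to 0.647% (endothelium). Thinning and a minimum of 2 UMI, which lower detection by construction, took 14 of 15 shares of cells of the 5 detected genes below their binomial interval. Depth limits what a 0 can show for a gene of any length. At 9.48 CPM the limit of a 0 in batch 7 lies above the level of Aqp4 or Cx3cr1 in most batches.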
